A study of Mus musculus with 5 samples.

Results

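The interferon response genes described here are 37 named genes covering interferon receptor chains, transcription factors, RNA sensors, antiviral effectors and the inducible proteasome. They were found by gene name in the deposited table, whose transcripts were summed to 21667 genes, and 36 of the 37 were listed. Oasl1 was not listed. Of the 36, 26 reached at least 1 CPM (a gene's reads scaled to all reads of its library) in at least 2 of the 5 libraries and were tested. Isg15, Ifitm1, Oas1a, Oas3, Mx1, Mx2 and Gbp3 reached 1 CPM in 1 library only, and Ifit1, Ifit2 and Rsad2 were under 1 CPM in every library.

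Type I interferons bind a receptor made of IFNAR1 and IFNAR2. The kinases JAK1 and TYK2 then phosphorylate STAT proteins, among them STAT2, which join IRF9 and bind the interferon-stimulated response element (ISRE). Interferon gamma binds IFNGR1 and IFNGR2, and STAT dimers then bind the gamma-activated site (GAS). In skin, keratinocytes and resident immune cells carry these receptors, and effectors such as the Ifit and Oas proteins limit viral replication.

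The libraries came from total dorsal epidermis of wildtype C57BL/6 male mice at postnatal day 49. In the forskolin group (2 libraries), forskolin, which activates adenylyl cyclase, was applied at 10 µM to shaved skin in DMSO and PLO lotion; in the cAMP group (2 libraries), cAMP was applied at 1.325 mM. Both were given 3 times over 5 days, in a study of how Creb signaling bears on the hair cycle. The control (1 library) is labelled untreated; the labels state neither whether it received the lotion nor whether each library is a separate animal. The p-values thus measure library-to-library spread alone, which may be technical. The tissue is a mixture of cells, in which fewer cells of a type and less RNA per cell cannot be told apart.

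Estimated depth was 34200000 to 51700000 reads per library. Mitochondrial genes took 43.2% to 58.1% of the values in treated libraries and 69.3% in the control. Values were divided by median-of-ratios size factors, 1.42 and 1.31 with forskolin, 1.65 and 1.12 with cAMP and 0.317 in the control. The divided values are called rescaled CPM below. How far the mitochondrial share accounts for the differences between these factors was not tested. Over all tested genes, the rescaling brought the median log2 change for forskolin against control to 0.18 from 1.69 as deposited. For cAMP against control the median went to 0.16 from 1.66. The keratinocyte markers Krt5, Krt14, Krt1, Krt10, Trp63, Dsg3 and Col17a1 summed to 5008 and 4453 rescaled CPM with forskolin, 4142 and 2672 with cAMP and 6151 in the control. Langerhans cell markers summed to 637 and 434 with forskolin, 514 and 300 with cAMP and 370 in the control. Macrophage markers summed to 56.3 and 36.3 with forskolin, 32.3 and 30.1 with cAMP and 29.8 in the control. The macrophage markers differed in direction. Csf1r had 38.2 and 22.7 with forskolin, 21.5 and 11.7 with cAMP and 5.24 in the control. Adgre1, Cd68 and Lyz2 were highest in the control. Fibroblast markers, from cells below the epidermis, summed to 6.43 and 151 with forskolin, 64.7 and 233 with cAMP and 455 in the control. Endothelial markers summed to 1.09 to 3.47 over the 5 libraries, with Cdh5, Kdr, Emcn and Tie1 at 0 in the control.

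Summed over the 36 listed interferon genes, the level was 294 and 255 rescaled CPM with forskolin, 287 and 230 with cAMP and 251 in the control, so the control lay within the range of the treated libraries. A level of at least 1 rescaled CPM was held by 23 and 25 of them with forskolin, 23 and 23 with cAMP and 25 in the control. In the control library 10 of the 36, or 27.8%, were under 1 estimated read (Isg15, Ifit2, Ifit3, Ifitm1, Dhx58, Oas1a, Oas2, Oas3, Mx2 and Gbp2). Among the tested genes, 4 of the 26 (15.4%) were under 1 read in the control, against 12.4% of all 13764 tested genes. The limit that a count of 0 allows in the control, 3 reads, was 0.192 rescaled CPM.

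**Figure D1:**
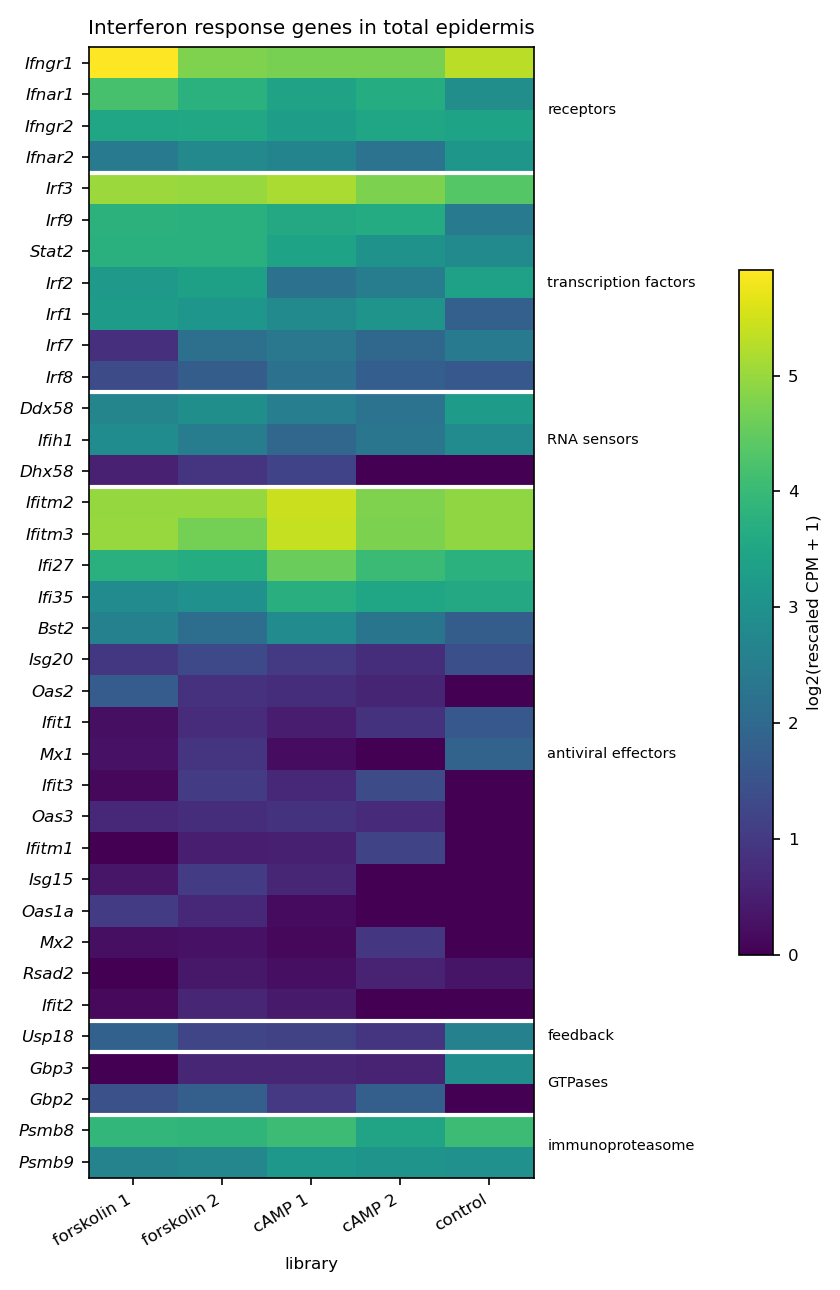
Levels of the 36 listed interferon genes in each library, as log2(rescaled CPM + 1), with genes in rows grouped by role and libraries in columns (forskolin 1 and 2, cAMP 1 and 2, control 1). Ifngr1, Irf3, Ifitm2 and Ifitm3 are the brightest rows, and the Isg15, Ifit, Rsad2, Mx and Oas genes stay between 0 and 2.68 rescaled CPM.

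Per kilobase of transcript, the highest mean levels belonged to Ifitm2 and Ifitm3, membrane proteins that block virus entry, at 48.6 and 44.8 rescaled CPM per kb. They were followed by Ifi27, a mitochondrial protein, at 20.7 and Ifngr1, the ligand-binding chain of the interferon gamma receptor, at 18.6 rescaled CPM per kb. The ranges over the 5 libraries of Ifitm2 (40.2 to 65 per kb) and Ifitm3 (36 to 60.3 per kb) overlapped, as did those of Ifi27 (15.2 to 31.5 per kb) and Ifngr1 (12.1 to 31.6 per kb). The range of Ifi27 lay wholly below that of Ifitm3. Next in order were Psmb8 at 12.9 and Psmb9 at 8.02 rescaled CPM per kb, subunits of the immunoproteasome, which cuts peptides for presentation. Irf3 has no value per kb because lengths matched for only 2 of its 9 transcripts.

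At the gene level, Ifitm2 had 30.5 and 30.5 rescaled CPM with forskolin, 42.6 and 26.4 with cAMP and 29.5 in the control. Ifitm3 had 31.0 and 24.4 with forskolin, 40.9 and 25.8 with cAMP and 29.6 in the control. In both, cAMP 1 was the highest library and the cAMP libraries lay on either side of the control. Reads of these closely related paralogs may have been split between them in counting, so each single value is uncertain. Ifi27 had 12.5 and 11.6 rescaled CPM with forskolin, 22.7 and 15.4 with cAMP and 12.6 in the control; the cAMP libraries were the highest and did not overlap those with forskolin.

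The genes most often read as an interferon signature were near the bottom of the range. This set holds the 10 listed Isg15, Ifit, Rsad2, Mx and Oas genes. Isg15 encodes a ubiquitin-like modifier, the Ifit genes RNA-binding proteins, Rsad2 an antiviral enzyme and the Oas genes sensors that activate RNase L. Mx1 and Mx2 belong to a family of antiviral GTPases. The transcript Mx2-001 is annotated as a polymorphic pseudogene and Mx1-003 as a nonsense-mediated decay transcript, while others, such as Mx2-201, are annotated as protein-coding. Whether Mx1 and Mx2 yield working protein in these mice was not tested. The 10 genes together summed to 5.06 and 6.75 rescaled CPM with forskolin, 3.93 and 4.89 with cAMP and 5.04 in the control. The control lay between the cAMP and the forskolin libraries. Isg15 had 0.290 and 1.03 with forskolin, 0.563 and 0 with cAMP and 0 in the control. Mx1 had 0.230 and 0.853 with forskolin, 0.140 and 0 with cAMP and 2.68 in the control, where it rested on an estimated 42 reads. Ifit1 had 0.174 and 0.681 with forskolin, 0.363 and 0.812 with cAMP and 2.11 in the control. Mx1 and Ifit1 were highest in the control after rescaling, while Isg15 was at 0 there. As deposited, Mx1 was 1.12 CPM in forskolin 2, against 0.85 in the control. Ifit1 as deposited was 0.896 CPM in forskolin 2 and 0.907 in cAMP 2, against 0.668 in the control. The control's Mx1 value came from Mx1-004 alone, 1 of its 4 listed transcripts. Isg15, Mx1 and Ifit1 did not pass the level filter, so they were not tested.

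RefSeq promoters (GRCm38.p6, 250 bases before to 50 after each start) were matched for 31 of the 37 genes, with 38 promoters in all. The ISRE was searched as GAAANNGAAA and the GAS as TTCNNNGAA on both strands. An ISRE stood in 15 of the 38 promoters, against 3.44% of the 32851 promoters in the table. A GAS stood in 12 of the 38, against 8.3%. The cAMP response element TGACGTCA stood in 0 of the 38, against 1.79% of all promoters, and its shorter form TGACG, which overlaps it, in 7 of the 38 against 20.8%. Promoters of 4 genes are printed 5′ to 3′ on the gene's strand, with ISRE and GAS matches in capitals. Irf1 and Gbp2 are shown because they passed the test with forskolin and hold a match. Isg15 and Ifitm3 are shown because both hold ISRE matches and differ widely in mean level (0.499 and 44.8 rescaled CPM per kb).
Irf1: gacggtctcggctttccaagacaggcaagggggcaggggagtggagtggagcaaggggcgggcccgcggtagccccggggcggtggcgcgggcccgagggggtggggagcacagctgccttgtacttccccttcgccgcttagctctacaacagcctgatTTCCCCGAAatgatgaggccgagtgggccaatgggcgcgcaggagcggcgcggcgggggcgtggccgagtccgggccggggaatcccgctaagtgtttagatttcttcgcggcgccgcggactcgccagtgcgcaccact
Gbp2: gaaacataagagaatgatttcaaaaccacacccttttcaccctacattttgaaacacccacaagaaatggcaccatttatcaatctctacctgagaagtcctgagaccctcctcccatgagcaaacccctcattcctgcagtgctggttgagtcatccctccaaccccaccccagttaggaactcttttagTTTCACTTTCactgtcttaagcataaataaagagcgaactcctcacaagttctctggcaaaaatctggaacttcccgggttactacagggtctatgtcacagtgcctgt
Isg15: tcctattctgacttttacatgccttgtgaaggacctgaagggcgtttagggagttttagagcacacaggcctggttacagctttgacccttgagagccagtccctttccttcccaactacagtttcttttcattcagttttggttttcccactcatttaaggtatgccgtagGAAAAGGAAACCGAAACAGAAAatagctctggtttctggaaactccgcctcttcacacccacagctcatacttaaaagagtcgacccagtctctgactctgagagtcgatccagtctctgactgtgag
Ifitm3: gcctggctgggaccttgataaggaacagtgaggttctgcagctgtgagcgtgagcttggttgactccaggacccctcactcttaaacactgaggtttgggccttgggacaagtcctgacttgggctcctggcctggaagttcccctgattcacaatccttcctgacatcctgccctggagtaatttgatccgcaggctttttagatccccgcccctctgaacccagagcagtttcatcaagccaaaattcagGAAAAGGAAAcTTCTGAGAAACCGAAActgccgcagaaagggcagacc
Of the Irf1 promoters in the table, the one printed lies at chr11:53769764-53770063 on the plus strand, with a GAS that begins 90 bases before the start; the other, at chr11:53770223-53770522, holds none of these motifs. Irf9 also passed with forskolin. Neither of its RefSeq windows, at chr14:55603735-55604034 and chr14:55604329-55604628, holds an ISRE, a GAS or a cAMP response element. Both windows begin inside the listed span of the gene (chr14:55603571-55610030), so the bases before that span were not searched. The Gbp2 promoter lies at chr3:142620413-142620712 on the plus strand, with an ISRE 59 bases before the start that reads on the opposite strand. The Isg15 promoter lies at chr4:156200769-156201068 on the minus strand and has 3 overlapping ISRE matches that begin 78, 72 and 66 bases before the start. The Ifitm3 promoter lies at chr7:141010695-141010994 on the minus strand, with ISRE matches that begin 2 and 19 bases after the start and a GAS that begins 13 bases after it and overlaps the second ISRE. A match is a run of letters and was not tested for binding.

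The first comparison asks which interferon genes differed after forskolin. Irf1, Irf9 and Gbp2 were higher with forskolin than in the control, and 0 of the 26 were lower (limma with Benjamini-Hochberg adjustment over 13764 genes, threshold 0.05). The 3 higher genes are 11.5% of the 26, against 14.4% of all tested genes called higher and 7.39% called lower. At an unadjusted p under 0.05 there were 6 higher and 0 lower, 23.1% of the 26, against 36.8% of all tested genes in either direction. The level filter asks for 1 CPM as deposited in 2 libraries. A gene that reached it only in the single control, such as Gbp3, could not be tested. Mx1 was highest in the control after rescaling but reached 1 CPM only in forskolin 2 (1.12, against 0.85 in the control). With a size factor of 0.317, 1 CPM in the control is a higher rescaled level than in treated libraries. Irf1 and Gbp2 reached 1 CPM in treated libraries only. The balance of higher and lower calls is limited by this filter. The median log2 change of the 26 was 0.00, against 0.18 over all tested genes, and the changes ran from -1.07 to 1.63. Libraries of the groups did not overlap in 12 genes that were higher and 10 that were lower, against 49.8% and 36.7% of all tested genes.

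Irf9 is the DNA-binding partner of STAT2 (ENSMUSG00000002325, chr14:55603571-55610030). It had 12.9 and 12.4 rescaled CPM with forskolin (mean 12.7 ± 0.362, SD, n = 2), against 4.47 in the control, an estimated 70 reads. Both forskolin libraries lay above the control, a log2 change of 1.32 ± 0.40 (SE; 95% interval 0.47 to 2.17; limma adjusted p = 0.0272, and 8.37e-06 to 0.0738 over the alternatives). Without forskolin 1 the limma adjusted p was 0.0738, and without forskolin 2 it was 0.0695. Irf9 overlaps Rnf31 on the same strand, so reads in the shared stretch cannot be assigned with certainty.

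Irf1 activates interferon gamma targets (ENSMUSG00000018899, chr11:53770014-53777323). It had 8.48 and 7.55 rescaled CPM with forskolin, against 2.49 in the control, an estimated 39 reads. The forskolin libraries were the highest of the 5, with a log2 change of 1.37 ± 0.43 (SE; 95% interval 0.46 to 2.28; limma adjusted p = 0.0322, and 3.56e-05 to 0.103 over the alternatives). Without forskolin 1 the limma adjusted p was 0.103, and without forskolin 2 it was 0.073.

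Gbp2 is an interferon-induced GTPase that acts on intracellular pathogens (ENSMUSG00000028270, chr3:142620602-142638008). It had 1.77 and 2.47 rescaled CPM with forskolin, against 0 in the control. With the control set at its 3-read limit, Gbp2 was at least 11.1-fold higher. Gbp2 passed the level filter through the 4 treated libraries alone, so against this control it could only be called higher. Without the filter it did not pass. The log2 change was 1.63 ± 0.54 (SE; limma adjusted p = 0.0392, and 0.00664 to 0.3 over the alternatives). Without forskolin 1 the limma adjusted p was 0.0541, and without forskolin 2 it was 0.147. Its paralog Gbp3 had 0 and 0.548 rescaled CPM with forskolin, against 6.45 in the control, an estimated 101 reads. Gbp2 was thus higher and Gbp3 lower in the forskolin libraries than in the control library. Gbp3 did not pass the level filter and has no test here. Whether reads of these paralogs were split between them in counting was not tested.

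**Figure D2:**
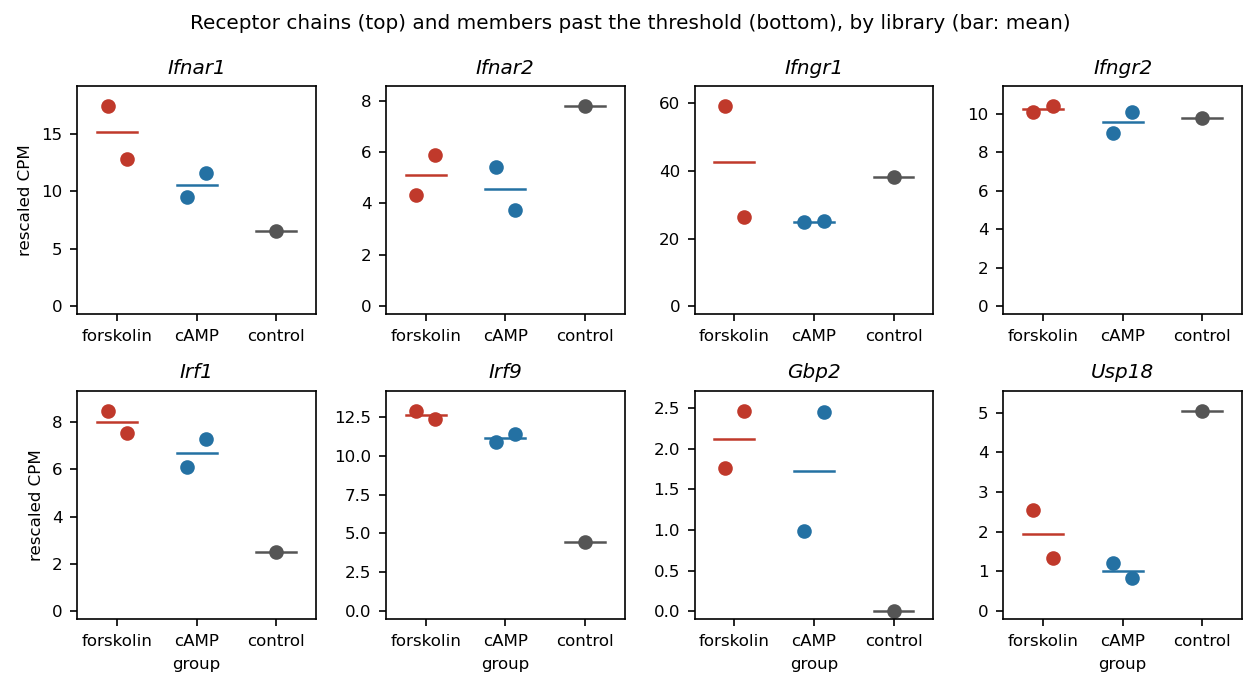
Rescaled CPM in each library (dots; forskolin 1 and 2, cAMP 1 and 2, control 1) with the group mean as a bar, for the 4 receptor chains in the top row and the 4 genes past the threshold in a comparison with the control in the bottom row. Irf1, Irf9 and Gbp2 lie above the control in all 4 treated libraries and Usp18 lies below it in all 4.

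Of the receptor chains, Ifnar1 had 17.4 and 12.8 rescaled CPM with forskolin, against 6.58 in the control. Both libraries were above the control, with a log2 change of 1.08 (95% interval 0.21 to 1.94) that did not pass (limma adjusted p = 0.0674). Ifnar2, its partner, had 4.34 and 5.87 with forskolin, against 7.79 in the control, with both below it and a log2 change of -0.54 (limma adjusted p = 0.4). Ifngr1 had 59.2 and 26.3 with forskolin, against 38.3 in the control, which lay between them. Ifngr2, the signaling chain for interferon gamma, had 10.1 and 10.4 with forskolin, against 9.77 in the control.

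The remaining transcription factors, sensors and effectors did not pass with forskolin. Stat2 had 12.5 and 12.4 rescaled CPM with forskolin, against 6.00 in the control, with a log2 change of 0.94 (limma adjusted p = 0.108). Oas2 had 2.31 and 0.791 with forskolin, against 0 in the control, with a log2 change of 1.28 (limma adjusted p = 0.108). Usp18, a protease that removes ISG15 and dampens type I receptor signaling, had 2.55 and 1.35 with forskolin, against 5.05 in the control, with a log2 change of -1.07 (limma adjusted p = 0.138). Stat2 and Oas2 lay above the control in both forskolin libraries and Usp18 lay below it in both.

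The calls depended on the scaling. With values as deposited, 18 of the 26 (69.2%) were higher with forskolin and 0 lower, against 66.3% of all tested genes higher and 0.341% lower, and the median log2 change was 1.71 against 1.69 over all tested genes. In either scaling the share called higher among the 26 was near that over all tested genes. In the forskolin libraries Csf1r and C1qa (macrophage), Cd52 (T cell) and Mfge8 (Langerhans cell) passed the same test as higher. Col1a1, Col1a2, Col3a1, Dcn (fibroblast) and Lyz2 (macrophage) passed as lower. C1qa was under the control's 3-read limit, so it could only be called higher. Adgre1 and Cd68 (macrophage) lay below the control in both forskolin libraries without passing. No other T cell or Langerhans cell marker passed. The part of the marker genes, and that of the mitochondrial share, in these differences was not tested.

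The second comparison asks the same of cAMP. Irf9 was higher and Usp18 lower with cAMP than in the control, each 3.85% of the 26, against 14.8% of all tested genes called higher and 7.78% called lower. At an unadjusted p under 0.05 there were 3 higher and 2 lower, 19.2% of the 26, against 36.6% of all tested genes in either direction. The median log2 change of the 26 was 0.16, equal to that over all tested genes, and the changes ran from -1.59 to 1.39. Libraries did not overlap in 12 genes that were higher and 8 that were lower, against 47.5% and 36.2% of all tested genes.

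Irf9 had 10.9 and 11.4 rescaled CPM with cAMP (mean 11.1 ± 0.332, SD, n = 2), against 4.47 in the control. Both cAMP libraries lay above it, a log2 change of 1.15 ± 0.40 (SE; 95% interval 0.30 to 2.0; limma adjusted p = 0.0485, and 2.73e-05 to 0.104 over the alternatives). The call was lost without any 1 of the treated libraries, with limma adjusted p-values of 0.0537 to 0.104.

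Usp18 (ENSMUSG00000030107, chr6:121245906-121270916) had 1.2 and 0.838 rescaled CPM with cAMP, against 5.05 in the control, an estimated 79 reads. Both cAMP libraries lay below it, a log2 change of -1.59 ± 0.51 (SE; 95% interval -2.66 to -0.52; limma adjusted p = 0.0327, and 0.0194 to 0.874 over the alternatives). Without cAMP 1 the limma adjusted p was 0.0547, and without cAMP 2 it was 0.087. As deposited, the log2 change was -0.12 with cAMP and 0.46 with forskolin, so the difference from the control rests on the rescaling.

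Irf1 had 6.10 and 7.28 rescaled CPM with cAMP, against 2.49 in the control, with a log2 change of 1.14 (limma adjusted p = 0.0671). Gbp2 had 0.984 and 2.46 with cAMP, against 0 in the control, at least 9.0-fold higher at the 3-read limit (log2 change 1.39, limma adjusted p = 0.0723). Both genes lay above the control in both cAMP libraries without passing. Irf2, which competes with Irf1 for the same sites, had 3.70 and 4.72 with cAMP, against 9.39 in the control, with a log2 change of -1.0 (limma adjusted p = 0.1). Ifnar1 had 9.52 and 11.6 with cAMP, against 6.58 in the control, and Ifnar2 had 5.40 and 3.76, against 7.79. Ifngr1 had 24.9 and 25.1 with cAMP, against 38.3 in the control, and Ifngr2 had 9.01 and 10.1, against 9.77. The cAMP libraries were above the control for Ifnar1, below it for Ifnar2 and Ifngr1 and on either side of it for Ifngr2, and none of the 4 chains passed.

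With values as deposited, 16 of the 26 (61.5%) were higher with cAMP and 0 lower, against 65.1% of all tested genes higher and 0.436% lower. Among the markers, Cd52 (T cell), Csf1r and C1qa (macrophage) and the melanocyte genes Dct and Tyrp1 passed as higher with cAMP. Krt10, Dsg3, Col17a1 and Dcn passed as lower. C1qa was under the control's 3-read limit, so it could only be called higher. Adgre1, Cd68 and Lyz2 (macrophage) lay below the control in both cAMP libraries without passing. Of the other melanocyte genes, Pmel had a log2 change of 1.42, Mlana -0.30 and Tyr -0.26. No T cell marker other than Cd52 passed. The part of the marker genes in the differences was not tested. The comparisons with forskolin and with cAMP share the 1 control library.

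**Figure D3:**
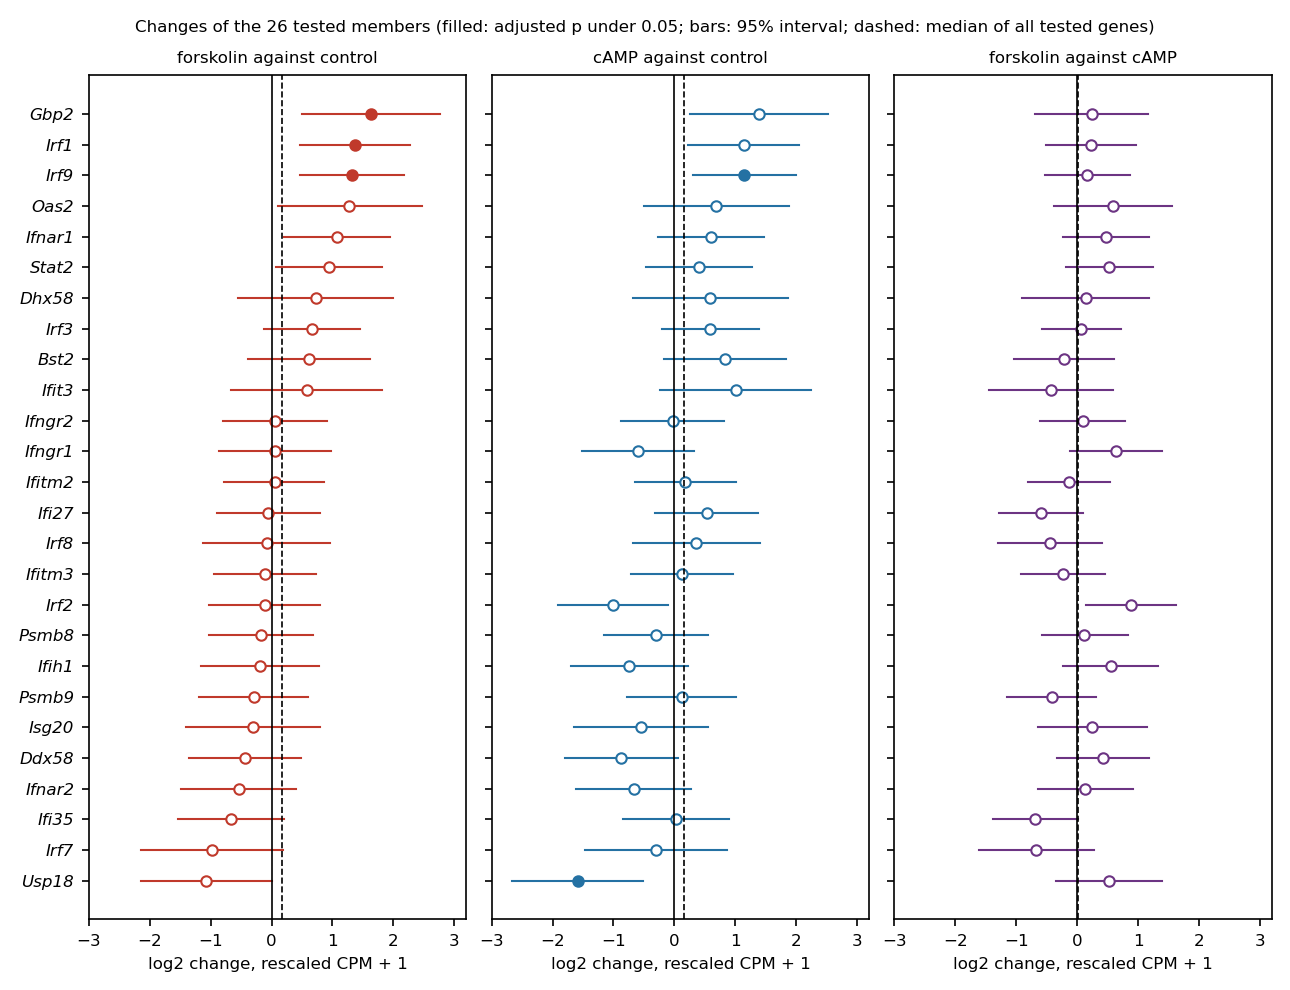
Log2 change of the 26 tested interferon genes in 3 comparisons (forskolin against control, cAMP against control, forskolin against cAMP), each point with its 95% interval from limma; filled points have an adjusted p under 0.05 and the dashed line is the median of all tested genes. Irf9 is filled in both comparisons with the control, Irf1 and Gbp2 in that of forskolin and Usp18 in that of cAMP, and no point is filled between the treatments.

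The third comparison sets forskolin against cAMP, the only pair with 2 libraries on each side. In limma, 0 of the 26 were higher and 0 lower with forskolin than with cAMP, against 0.0944% and 0.254% of all tested genes, and the lowest adjusted p was 0.333. At an unadjusted p under 0.05 there was 1 (3.85%, against 11.2% of all tested genes in either direction). That gene, Irf2, had 8.02 and 9.21 rescaled CPM with forskolin, against 3.70 and 4.72 with cAMP (log2 difference 0.89, 95% interval 0.15 to 1.63). Its forskolin libraries lay near the control value of 9.39. Libraries did not overlap in 10 genes that were higher with forskolin and 4 that were lower, against 21.2% and 20.4% of all tested genes. The log2 differences ran from -0.69, for Ifi35, to 0.89, with a median of 0.14 against 0.02 over all tested genes. For Irf9 the 95% interval of the log2 difference was -0.52 to 0.86 and for Irf1 it was -0.51 to 0.97. For Ifngr1 the interval was -0.11 to 1.39, with 59.2 and 26.3 rescaled CPM with forskolin, against 24.9 and 25.1 with cAMP.

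The authors' table is split by transcript, and the transcripts of Irf1 and Irf9, which passed, and of Ifnar1, which did not, are given here. Gbp2 and Usp18 have a single listed transcript each. In Irf1, the protein-coding transcript Irf1-001 had 3.01 and 3.58 rescaled CPM with forskolin, 2.23 and 4.36 with cAMP and 0.424 in the control. The protein-coding Irf1-002 had 2.09 and 1.99 with forskolin, 2.40 and 1.54 with cAMP and 2.07 in the control. The treated libraries were thus above the control in Irf1-001 and on either side of it in Irf1-002. In Irf9, the transcript Irf9-001 had 8.82 and 6.05 with forskolin, 4.08 and 7.30 with cAMP and 0.383 in the control. Irf9-003 had 1 and 2.24 with forskolin, 2.25 and 3.91 with cAMP and 4.09 in the control, the highest library for that transcript. In Ifnar1, Ifnar1-001 had 15.8 and 8.79 with forskolin, 3.74 and 5.49 with cAMP and 0 in the control, while Ifnar1-004 had 0.273 and 0.422 with forskolin, 0.141 and 3.99 with cAMP and 5.88 in the control. The control library held each of these genes mainly as another transcript than the forskolin libraries did.

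Over the 26 tested genes, 102 transcripts were listed, of which 70 and 83 (68.6% and 81.4%) reached the control's 3-read limit of 0.192 rescaled CPM with forskolin, 75 and 54 (73.5% and 52.9%) with cAMP and 39 (38.2%) in the control. Over the 50256 transcripts of all tested genes the shares were 64.5% and 79.2% with forskolin, 63.5% and 59.7% with cAMP and 44.2% in the control. The control had the lowest share in both sets; the part of its shallower effective depth in this was not tested. Transcript values are the authors' estimates from reads that isoforms share, and they were not tested.

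**Figure D4:**
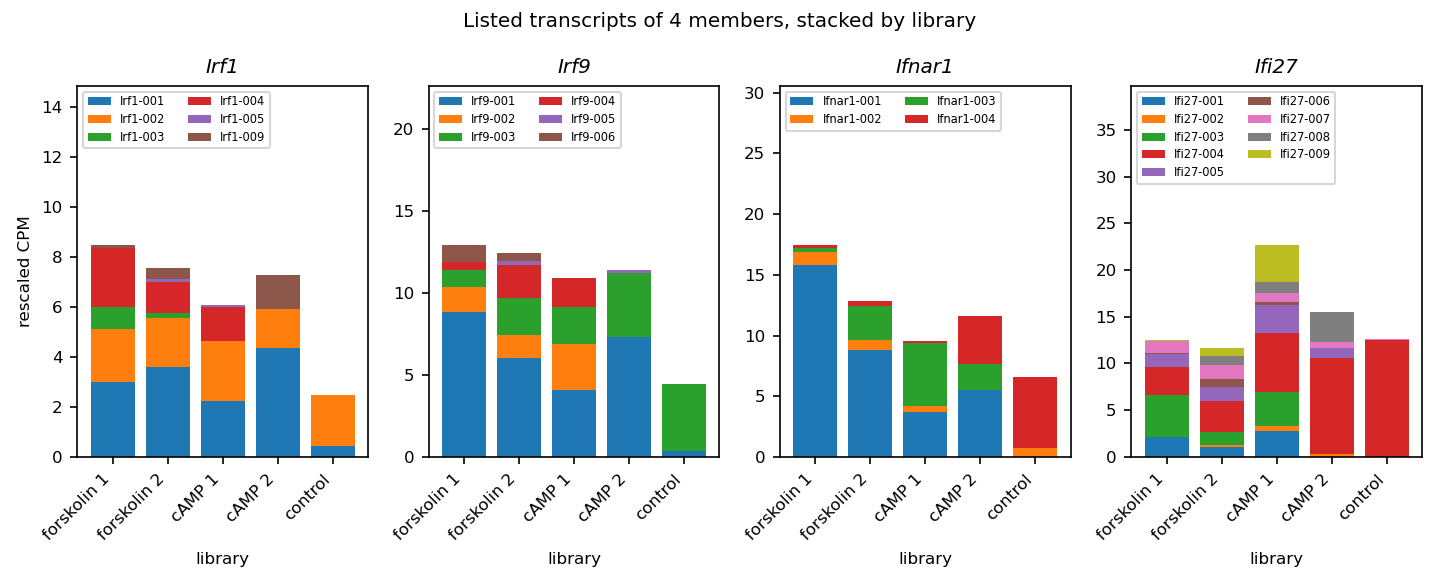
Rescaled CPM of each listed transcript of Irf1, Irf9, Ifnar1 and Ifi27, stacked by library (forskolin 1 and 2, cAMP 1 and 2, control 1). The control bar of Irf9 is mainly Irf9-003 (4.09) and that of Ifi27 almost wholly Ifi27-004 (12.5), while the forskolin bars hold several transcripts.

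Beyond the 37, a list of 64 other interferon pathway genes was read for context; 59 were listed and 50 tested. With forskolin 9 were higher (18%) and 3 lower (6%) than in the control: Tyk2, Dtx3l, Lgals3bp, Igtp, Psmb10, Psme2, Nlrc5, Socs3 and Tbk1 were higher, and Parp9, Gbp4 and B2m lower. With cAMP 7 were higher (14%) than in the control: Ifi27l2a, Dtx3l, Psmb10, Psme2, Nlrc5, Socs3 and Tbk1. Of the genes called higher, Psmb10, Psme2 and Ifi27l2a were under the control's 3-read limit. They passed the level filter through treated libraries alone, so against this control they could only be called higher. Parp9, Eif2ak2 and Gbp4 were among those lower with cAMP. The background shares were those given above for the same comparisons. Between forskolin and cAMP 0 of the 50 passed in limma, with 4 (8%) at an unadjusted p under 0.05, against 11.2% of all tested genes.

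Socs3, a feedback inhibitor of JAK signaling, had 26 and 21.4 rescaled CPM with forskolin, 20.4 and 10.5 with cAMP and 1.85 in the control. Its log2 change was 3.11 with forskolin (limma adjusted p = 0.000161) and 2.46 with cAMP (limma adjusted p = 0.000791). Tbk1, a kinase that activates IRF3, had 18.2 and 13.8 with forskolin, 14.9 and 17.0 with cAMP and 1.98 in the control, with log2 changes of 2.5 with forskolin and 2.51 with cAMP (limma adjusted p = 0.000511 and 0.000392). Nlrc5, the activator of MHC class I genes, had 34.5 and 36.0 with forskolin, 23.5 and 22.5 with cAMP and 6.77 in the control. All 3 lay above the control in every treated library.

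Psme2, a subunit of the proteasome activator, had 7.44 and 6.11 rescaled CPM with forskolin, 14.7 and 14.0 with cAMP and 0.174 in the control. Psmb10, the third inducible proteasome subunit, had 4.62 and 4.30 with forskolin, 6.88 and 7.49 with cAMP and 0 in the control. Both were highest with cAMP and passed in both comparisons with the control. Both were under the control's 3-read limit of 0.192 rescaled CPM and passed the level filter through treated libraries alone. Like Gbp2, they could only be called higher against this control. Among the 37, the inducible subunits Psmb8 and Psmb9 did not pass: Psmb8 had 14.1 and 13.5 with forskolin, 15.7 and 10.0 with cAMP and 15.7 in the control, and Psmb9 had 5.24 and 5.65 with forskolin, 7.89 and 7.36 with cAMP and 6.90 in the control. Gbp4 had 5.69 and 6.42 with forskolin, 4.49 and 3.33 with cAMP and 16.9 in the control, with a log2 change of -1.88 with cAMP (limma adjusted p = 0.00528) that was -0.01 as deposited.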

How the data were processed

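Values were deposited by the authors as CPM per transcript, a unit read from the values (columns summed to 805253.6 to 946739.3, with a small offset in place of 0). The submitters' processing notes name STAR, Partek and bcl2fastq 2.17; the genome build and annotation are not given in the sources used here. Of the 59869 transcripts, 98.3% were in GENCODE M21 (GRCm38), 90.7% of them at identical coordinates. Columns were matched to samples by library number in the sample descriptions. The 3 rows without a gene, at most 0.0679% of a library, were left out.

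If the offset stood for 0.0001 read, 59.6% to 75.7% of low gene sums lay within 0.1 of a whole read, so no count model was run. Limits at 3 reads cover counting error only. Transcripts were summed per gene, and size factors were taken over the 11512 tested genes that exceeded 0.05 CPM in all libraries. limma 3.58.1 in R 4.3.3 was fitted with an intensity trend to log2(rescaled CPM + 1), which understates changes of low genes, over 13764 genes with at least 1 CPM in 2 libraries. All 5 libraries and 3 groups entered 1 fit, with 2 residual degrees of freedom and 15.7 prior ones; tests were 2-sided with Benjamini-Hochberg adjustment at 0.05. The lone control was assumed to vary as the treated libraries do. The fit was run on simulated data in which all libraries had the same spread, taken from the treated libraries, and needed no rescaling. That run did not test the control's scaling or its own spread.

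The members and lists were chosen with earlier results of these data known. Values in every library are given for members past the threshold, the 4 highest per kilobase and the 4 receptor chains; other pathway genes past the threshold are named, up to 6 per comparison by smallest p with values, and some genes of that list are not reported here. Isg15, Mx1, Ifit1, Gbp3, Ifi35, Stat2, Oas2, Irf2, Psmb8, Psmb9 and the transcripts given were added after their values were seen. Promoters are from RefSeq (GRCm38.p6). Alternatives were the values as deposited, quantile normalization, other pseudocounts and filters, robust moderation, leaving out each library and a replicate block.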

Additional observations from a re-analysis of the deposited data

How the results depend on the processing

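Counts of interferon genes past the threshold moved with the scaling, the level filter and the libraries kept. With forskolin against control, 3 were higher in the main analysis, 18 as deposited, 0 with quantile normalization, 1 with a pseudocount of 5, 0 without the filter and 0 to 3 with 1 library left out; 0 were lower, and 1, Gbp3, without the filter. With cAMP against control, 1 was higher in the main analysis, 16 as deposited, 0 with quantile normalization, 3 with a pseudocount of 0.1, 0 with a pseudocount of 5, 0 without the filter and 0 to 1 with 1 library left out. In the same comparison 1 was lower, with 0 as deposited, 2 without the filter (Mx1 and Gbp3), 0 with a filter of 10 CPM and 0 to 1 with 1 library left out. Between forskolin and cAMP 0 were higher and 0 lower in every alternative run, including the fit with a replicate block. Deviations of libraries with the same number correlated at -0.068 over 13764 genes. With 2 libraries per group, this correlation cannot show whether the numbers pair the libraries. The labels do not say what a number stands for.

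Of the values for single genes, 20 reversed. As deposited, log2 changes with forskolin were 0.46 for Usp18, 1.19 for Ifnar2, 1.89 for Ifitm3, 1.81 for Ifi27 and 1.68 for Irf2, and with cAMP 1.05 for Ifnar2, 1.41 for Ifngr1, 1.77 for Ifngr2 and 0.75 for Irf2. With quantile normalization Ifngr2 was -0.01 with forskolin. With 1 library left out, forskolin against control ran from -0.52 (without forskolin 1) to 0.62 for Ifngr1 and from -0.27 to 0.06 (without forskolin 2) for Ifitm3. In cAMP against control, Ifngr2 ran from -0.11 to 0.05, Ifitm2 from -0.15 to 0.52 and Ifitm3 from -0.19 to 0.45, each reversing without cAMP 1. In forskolin against cAMP, Gbp2 ran from -0.16 to 0.64, Ifitm2 from -0.47 to 0.20 and Ifitm3 from -0.56 to 0.09, again reversing without cAMP 1, and Ifnar2 ran from -0.08 (without cAMP 2; -0.05 without forskolin 2) to 0.35. The cause of these shifts was not tested. The control cannot be left out. At its depth a level under 0.192 rescaled CPM there cannot be told from 0, so a decrease from such a level was not detectable. An increase from such a level could be called, as for Gbp2 with forskolin. Gbp2 passed the level filter through treated libraries alone, so that call does not show how well such increases are detected.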

Other observations

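Of the MHC class I presentation genes B2m, H2-K1, H2-D1, Tap1, Tap2 and Tapbp, B2m alone passed the test, with forskolin against control; these genes were chosen after their values were seen, and differences between them were not tested. B2m, the light chain, had 255 and 179 rescaled CPM with forskolin, 282 and 350 with cAMP and 583 in the control, with a log2 change of -1.44 with forskolin (limma adjusted p = 0.0231) that was 0.66 as deposited, so its direction depends on the scaling. With forskolin against control the log2 change was -0.16 for H2-K1 and 0.00 for H2-D1, the heavy chains, -0.05 for Tap1 and -0.15 for Tap2, the peptide transporter, and -0.98 for Tapbp, which loads peptides (limma adjusted p = 0.0693). Tap1 overlaps Psmb9 on the opposite strand. With cAMP against control the log2 change was -0.89 for B2m (limma adjusted p = 0.139) and -0.93 for Tapbp (limma adjusted p = 0.0822).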
